A study of Mus musculus with 40 samples.

Results

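The cytosolic ribosomal protein genes encode the proteins of the large (Rpl) and small (Rps) ribosomal subunits. They were taken by name: symbols starting with Rpl or Rps and a digit, plus Rplp0, Rplp1, Rplp2 and Rpsa, without pseudogene symbols (ending in -ps and a number) and without the Rps6k kinases. Of 22676 genes in the table, 94 had such a name, and 89 of them passed the filter (10 or more in 5 or more of 40 libraries). All tests ran over the 16395 genes that passed. The 89 comprised 46 large subunit genes, 31 small subunit genes and 12 others (paralogs, gene copies and 1 binding protein). RefSeq lists Rpl6l and Rps3a2 among these others as pseudogenes and Rps4l as a transcribed pseudogene. The 5 below the filter were Rpl39l, Rps3a3, Rps23rg1, Rps12l1 and Rpl32l, whose highest values lay between 5.27 and 35.4.

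RNA of the left ventricle was sequenced from FVB/NJ mice in 40 stranded libraries, 10 in each of 4 conditions with 5 females and 5 males per condition. ONOFF mice carried an inducible, heart-restricted, dominant-negative OGA, the enzyme that removes O-GlcNAc from proteins. Con mice are the controls, whose genotype the labels do not describe further. All 4 conditions shared 2 weeks of doxycycline food followed by standard chow, with surgery 2 weeks after the change of chow. ONOFF TAC and Con TAC mice had transverse aortic constriction, a narrowing of the aorta that overloads the ventricle, and ONOFF Sham and Con Sham mice a sham operation, each for 9 weeks. The comparisons ask whether a stopped induction of dominant-negative OGA alters the ventricle's transcripts with and without pressure overload. The labels used here name neither the promoter of the transgene nor the age of the mice.

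Cytosolic ribosomes join a large and a small subunit around ribosomal RNA, and their proteins are needed in near equal amounts. Most of their mRNAs start with a terminal oligopyrimidine (TOP) tract, through which mTORC1 and LARP1 set how much of each mRNA is translated. Growth of heart muscle under load is accompanied by ribosome production, and striated muscle has its own paralog of Rpl3, named Rpl3l. These are transcript levels, which do not measure ribosome number or protein synthesis.

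Values are normalized counts as deposited. They are not scaled to gene length, so tests compared levels between libraries and not between genes. Sums over several genes and the shares held by pseudogene copies use these unscaled values as they are. Library totals of these values were 35180000 to 47650000, and sequencing depth is unknown. Oga averaged 3816 ± 767 in ONOFF TAC, 5778 ± 1750 in ONOFF Sham, 2988 ± 366 in Con TAC and 3121 ± 263 in Con Sham libraries (SD, n = 10 each). Any transgene reads in it were not told apart from endogenous ones. The libraries Con Sham F 3, Con Sham F 5 and Con Sham M 4 listed 6045, 5782 and 6920 genes at 0, against 2635 to 4594 elsewhere. Con TAC F 2 and F 3 had Xist values below the highest male value of 87.7. All were kept, and results that move without them say so. Tests were limma on log2(value + 1) with 8 group means, both sexes weighted equally, and a gene was called at a Benjamini-Hochberg adjusted p below 0.05. Libraries are counted as lower or higher against the other condition's mean for their sex.

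Rpl3l, the striated muscle paralog of Rpl3, fell after TAC in ONOFF hearts. It ranged from 3916 to 6642 (median 5150) in ONOFF TAC and from 7991 to 11155 (median 8677) in ONOFF Sham libraries, so every TAC library lay below every sham library. The fold was 0.56 (log2 change -0.84, SE 0.091, limma adjusted p = 7.63e-09, lower in 10 of 10 libraries). The groups also did not overlap, in the lower direction, for 1.42% of all tested genes, and among the ribosomal protein genes for Rpl3l alone. The call held in 56 of 56 alternatives and omissions of a library, with log2 changes of -0.88 to -0.74.

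In Con hearts Rpl3l ranged from 6043 to 10191 (median 7689) after TAC and from 8077 to 11459 (median 9484) after sham. These ranges overlapped, and 8 of 10 TAC libraries were lower. Rpl3l fell by 0.32 on the log2 scale (SE 0.091, limma adjusted p = 0.0275). The call was lost when any of 7 libraries was left out: Con Sham F 3, F 4, F 5 and M 4, Con TAC F 3, M 1 and M 2, with adjusted p of 0.0514 to 0.0692. Without the 3 Con Sham libraries with many zeros the change was -0.24 (adjusted p = 0.147), and without the 2 Con TAC F libraries with little Xist it was -0.29 (adjusted p = 0.102).

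Between genotypes after TAC, Rpl3l was lower in ONOFF than in Con hearts, with a log2 change of -0.61 (SE 0.091, limma adjusted p = 4.45e-05, lower in 10 of 10 ONOFF libraries). The ranges overlapped, since the highest ONOFF TAC value of 6642 exceeded the lowest Con TAC value of 6043. No member had lower values without overlap here, as 0.0122% of all genes did. After sham the difference between genotypes was -0.09, which did not pass. The TAC effect in ONOFF minus that in Con was -0.52 (SE 0.129, 95% interval -0.78 to -0.26) and missed the threshold at an adjusted p of 0.0531 in limma. It passed in 17 of 55 alternatives and omissions, where the adjusted p was as low as 0.011, and its highest over all of them was 0.102. By mean level the order was ONOFF TAC (5130 ± 828.7), Con TAC (7829 ± 1341), ONOFF Sham (9111 ± 1100) and Con Sham (9707 ± 1098; SD, n = 10 each), and the last pair did not differ beyond the spread. Con TAC against ONOFF Sham was not tested.

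In both sexes Rpl3l showed the same order of TAC and sham in ONOFF hearts. Females ranged from 3916 to 6642 after TAC and from 7991 to 11155 after sham, and males from 3988 to 5471 after TAC and from 7998 to 9713 after sham. The TAC effect in females minus that in males, over both genotypes, was 0.05 (95% interval -0.21 to 0.31).

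Rpl3, the paralog found in most tissues, lies close to the peptidyl transferase centre of the large subunit. It ranged from 4870 to 7563 (median 6425) in ONOFF TAC, from 4329 to 6443 (median 5348) in ONOFF Sham, from 4640 to 7388 (median 5703) in Con TAC and from 3950 to 7410 (median 5040) in Con Sham libraries. The 4 ranges overlapped. In ONOFF hearts the TAC change of 0.24 (SE 0.092, limma adjusted p = 0.0578) missed the threshold, with 7 of 10 TAC libraries higher. It passed in 16 of 56 alternatives and omissions, including scaling to the library sum (0.33, adjusted p = 0.00115), library weights (adjusted p = 0.00946) and fitting the groups compared alone (adjusted p = 0.0205). In Con hearts the TAC change was 0.17 (adjusted p = 0.312). The log2 of Rpl3 minus that of Rpl3l in the same library is a within-library difference that carries a constant set by the lengths of both genes. Its median was 0.35 in ONOFF TAC, -0.72 in ONOFF Sham, -0.45 in Con TAC and -0.93 in Con Sham libraries. ONOFF TAC and ONOFF Sham did not overlap, at -0.24 to 0.80 against -1.17 to -0.51. Table rows named as pseudogene copies of Rpl3 held 35.4% of the summed value of Rpl3 and those copies, so reads of Rpl3 may have been divided among them.

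**Figure D1:**
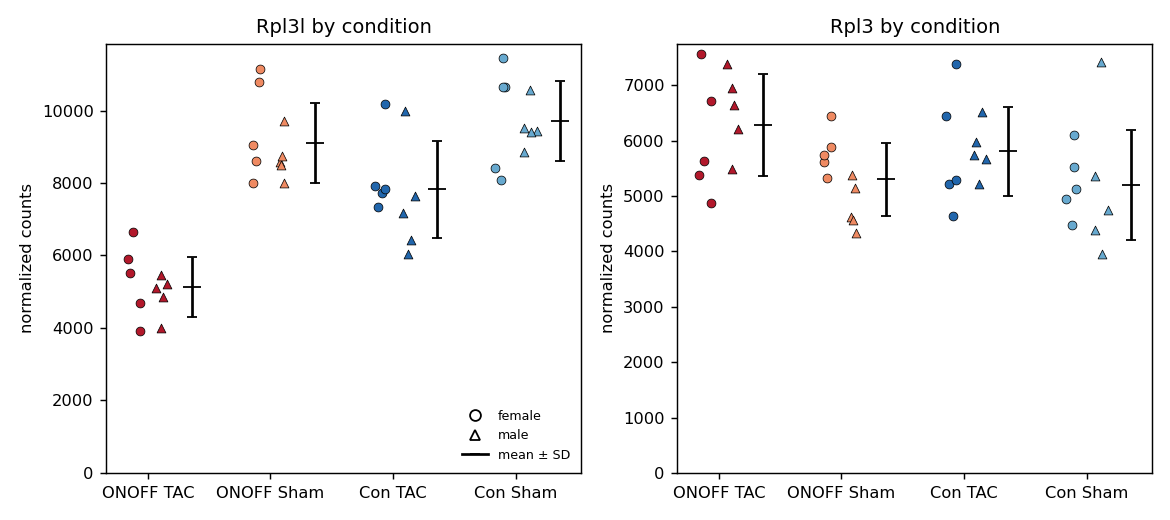
Normalized counts of Rpl3l (left) and Rpl3 (right) on linear axes from 0, with 1 point per library, circles for females, triangles for males, and the mean ± SD of 10 libraries at the side of each condition. Rpl3l in ONOFF TAC lies at 3916 to 6642, below all ONOFF Sham libraries, while the 4 conditions of Rpl3 overlap.

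Beyond Rpl3l, 11 members passed the test between TAC and sham in ONOFF hearts, all with lower values after TAC. In total 12 of 89 were lower and 0 higher, where 21.2% of all tested genes were called, 10.6% lower and 10.7% higher. The called members made up 13.5% of the 89, less than the 21.2% of all genes called in either direction and more than the 10.6% called lower. The log2 change was negative for 85 of 89 members and for 49% of all genes, with a median of -0.17 over the members and 0.01 over all genes. Members rise and fall together from library to library, so these counts do not rest on independent genes. Large and small subunit genes had medians of -0.16 and -0.17. Beside Rpl3l, the called genes were 4 large subunit genes (Rpl9, Rpl5, Rpl7a, Rpl8), 6 small subunit genes (Rps15a, Rps3, Rps10, Rps4x, Rps6, Rps2) and the paralog Rpl22l1. In bulk tissue, fewer cells of a type and less RNA per cell cannot be told apart.

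Rpl22l1, a paralog of Rpl22, ranged from 438 to 835 (median 543) in ONOFF TAC and from 579 to 951 (median 763) in ONOFF Sham libraries. The ranges overlapped, and 9 of 10 TAC libraries were lower than the sham mean of their sex. Its log2 change of -0.43 (SE 0.118, limma adjusted p = 0.00578) was the second largest after Rpl3l among the called members. Rpl9, a large subunit protein, ranged from 7229 to 9895 (median 8448) after TAC and from 8956 to 14012 (median 10653) after sham in ONOFF hearts. It fell by 0.37 on the log2 scale (SE 0.100, limma adjusted p = 0.00527), and 10 of 10 TAC libraries were lower although the ranges overlapped. Rps15a, a small subunit protein, ranged from 3456 to 5163 (median 4276) after TAC and from 4651 to 7000 (median 5341) after sham, and fell by 0.35 (SE 0.106, limma adjusted p = 0.0155). Rpl3l, Rpl22l1, Rpl9 and Rps15a were called in every one of 16 alternatives and 40 omissions.

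Rps3, a protein at the mRNA entry channel of the small subunit, ranged from 10832 to 16283 (median 14415) in ONOFF TAC and from 15095 to 21330 (median 15988) in ONOFF Sham libraries, and fell by 0.28 (limma adjusted p = 0.0165). Rpl5, which carries 5S rRNA into the large subunit together with Rpl11, ranged from 9461 to 11482 (median 10488) after TAC and from 11150 to 14554 (median 11471) after sham, and fell by 0.20 (adjusted p = 0.0208). For both, 10 of 10 TAC libraries were lower and the ranges overlapped. Both calls held in 40 of 40 omissions and in 15 of 16 alternatives. Scaling libraries to their sum lost them (limma adjusted p = 0.058 for Rps3 and 0.131 for Rpl5). Over all of these fits the log2 change was -0.31 to -0.18 for Rps3 and -0.23 to -0.11 for Rpl5.

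Rps10, Rps4x, Rpl7a, Rps6, Rps2 and Rpl8 fell by 0.22 to 0.32 on the log2 scale, with limma adjusted p from 0.0246 for Rps10 to 0.0472 for Rpl8. Rps6, the phosphorylated target of S6 kinase, ranged from 10265 to 14791 (median 11485) after TAC and from 12014 to 17104 (median 13852) after sham. It fell by 0.22 (SE 0.077, limma adjusted p = 0.0375). These 6 calls were less steady. Rps10 kept its call in 36 of 40 omissions, Rpl7a in 34, Rps4x in 33, Rps6 in 30, Rps2 in 29 and Rpl8 in 19. The count of 12 became 7 without ONOFF Sham F 1, ONOFF Sham F 4, ONOFF Sham M 1 or ONOFF TAC F 2, and 6 without ONOFF TAC F 4. Library names carry a number that several libraries share, across and within conditions: ONOFF TAC F 2, F 3, F 4 and M 1 have the same one, which no other library has. The labels do not say what it stands for. With this number as a random block 9 of the 12 calls were kept, and those of Rps6 (adjusted p = 0.0521), Rps2 and Rpl8 were lost. Scaled to the library sum the count became 2 higher and 5 lower, the Rpl3 call among the higher, and with 2 other fits it rose to 27 (library weights, 1 higher and 26 lower) and 26 (only the groups compared, 1 higher and 25 lower).

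Rps2 was also lower in ONOFF than in Con hearts after TAC. It is a small subunit protein near the mRNA entry channel. It ranged from 6344 to 10037 (median 7979) in ONOFF TAC and from 7809 to 17563 (median 9001) in Con TAC libraries, with overlapping ranges and 9 of 10 ONOFF libraries lower. The log2 change was -0.39 (SE 0.114, limma adjusted p = 0.0287). The call was lost without Con TAC F 4 (-0.33, limma adjusted p = 0.073), Con TAC M 3 (-0.30, 0.0808), ONOFF TAC F 2 (-0.36, 0.0548) or ONOFF TAC F 4 (-0.35, 0.0697). It was also lost without the 2 Con TAC F libraries with little Xist (adjusted p = 0.0518). In all, 7 of 56 alternatives and omissions lost it, and the log2 change of Rps2 over the 56 was -0.44 to -0.24. Rows named as Rps2 copies held 73.4% of the summed family value, more than Rps2 itself, so how its reads were divided is uncertain.

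Altogether 2 of 89 members (Rpl3l and Rps2) were called between genotypes after TAC, both lower in ONOFF, where 7.97% of all genes were called and 3.82% lower. The log2 change was negative for 85 of 89 members and 50.2% of all genes, with a median of -0.18 over the members and 0.00 over all genes. At an unadjusted p below 0.05, 25 members were lower and 0 higher, against 10.5% and 10.3% of all genes. This comparison shares its ONOFF TAC libraries with that of TAC and sham in ONOFF hearts. Rpl5 (-0.19, limma adjusted p = 0.0651), Rps3 (-0.25, 0.0652) and Rps15a (-0.30, 0.0784) had the next smallest p and did not pass. Leaving out Con TAC F 1 or Con TAC M 2 raised the count to 6 and 4, and leaving out Con TAC F 4, Con TAC M 3, ONOFF TAC F 2 or ONOFF TAC F 4 lowered it to 1.

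In Con hearts, 1 of 89 members was called between TAC and sham (Rpl3l, lower), where 5.78% of all genes were called and 2.62% lower. The median change was 0.05 over the members and 0.02 over all genes, and 19 of 89 members were negative, against 46% of all genes. Of the canonical genes (77 subunit proteins) 0 were called by limma and 0 had an unadjusted p below 0.05, where 19.9% of all genes had such a p. The smallest p among the positive changes belonged to 2 divergent members, and neither passed. They were Rps4l, a transcribed pseudogene in RefSeq, with 0.49 (SE 0.174, limma adjusted p = 0.0874), and the p53-inducible paralog Rps27l with 0.40 (SE 0.147, adjusted p = 0.102). The copy Rps27rt changed by 0.41 (SE 0.262, adjusted p = 0.412). Rps27l ranged from 1001 to 2080 (median 1167) in Con TAC and from 539 to 1285 (median 1031) in Con Sham libraries, and 10 of 10 TAC libraries exceeded the sham mean of their sex. Without the 3 Con Sham libraries with many zeros, the count was again 1, but it was Rpl3, higher by 0.29 (adjusted p = 0.0467), and the members' median was 0.18. Leaving out Con TAC F 1 or Con TAC M 4 gave 2 calls, 1 higher and 1 lower, and scaling to the library sum gave 3, 2 higher and 1 lower.

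Between genotypes after sham, 0 of 89 members were called by limma, and 0 had an unadjusted p below 0.05, where 0.14% of all genes were called and 8.63% had such a p. The 3 smallest p belonged to Rps19bp1, a binding partner of Rps19, with 0.18 (adjusted p = 0.62), Rpl22l1 with 0.19 (0.711) and Rps15a with 0.16 (0.735). Rps19bp1 ranged from 235 to 474 (median 302) in ONOFF Sham and from 224 to 334 (median 267) in Con Sham libraries. The change was negative for 16 of 89 members and 46.6% of all genes. The median over the members was 0.04, and 0.16 without the 3 Con Sham libraries with many zeros.

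The difference of the TAC effects, ONOFF minus Con, was called by limma for 0 of 89 members, where 0.445% of all genes were called. It was negative for 87 of 89 members and 51.9% of all genes, with a median of -0.21 against -0.01 over all genes. At an unadjusted p below 0.05 there were 10 members, against 11.4% of all genes. All 10 were negative and 0 positive, against 6.5% and 4.93% of all genes. After Rpl3l the smallest p belonged to Rps15a (-0.46, SE 0.150, adjusted p = 0.173) and Rps3 (-0.36, SE 0.121, adjusted p = 0.184). A TAC effect that passed in ONOFF hearts and not in Con hearts was therefore not shown to differ between them for any single member. The count was 1 (Rpl3l) without Con Sham F 3, Con Sham M 4, Con TAC F 2, Con TAC M 1, Con TAC M 2, ONOFF Sham F 3 or ONOFF TAC F 1, and 3 without the 5 libraries that stood apart.

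**Figure D2:**
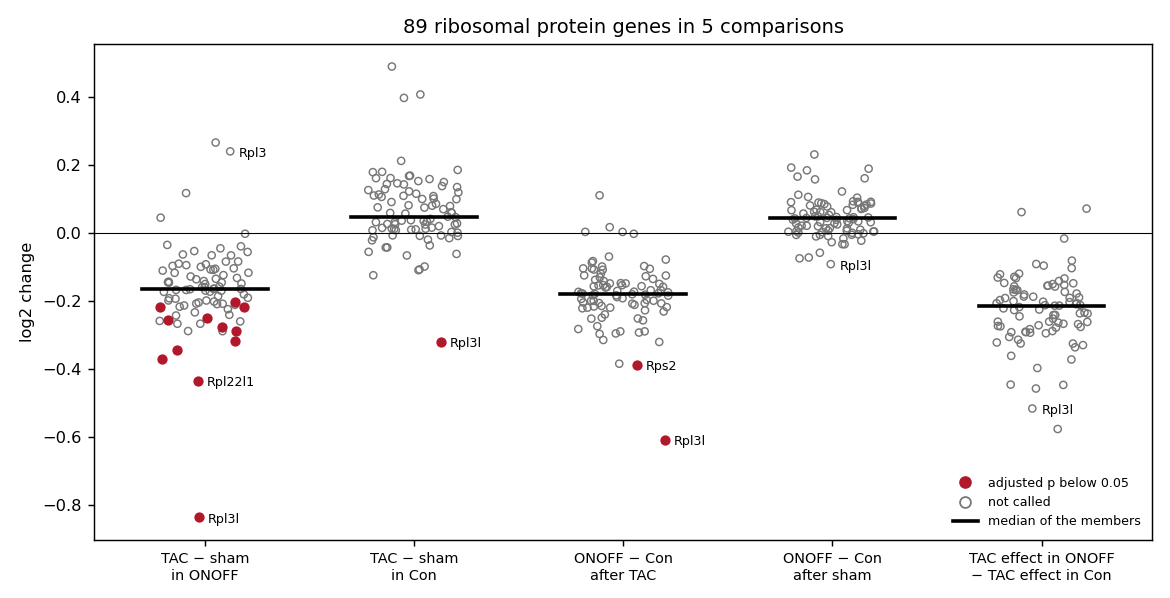
Log2 change of each of the 89 genes in 5 comparisons, with filled points for an adjusted p below 0.05, open points for the others and a bar at the median. The members' medians lie at -0.17 for TAC in ONOFF and -0.18 for ONOFF after TAC, and at 0.05 and 0.04 for TAC in Con and ONOFF after sham, and Rpl3l stands lowest in the comparisons in which it was called.

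Summed over the 89 genes, the values made up 1.499% to 2.29% of a library. The medians were 1.67% in ONOFF TAC, 1.76% in ONOFF Sham, 1.78% in Con TAC and 1.65% in Con Sham libraries, and all 4 ranges overlapped. Without mitochondrial transcripts in the total they were 1.98%, 2.20%, 2.14% and 2.08% in the same order, and the ranges overlapped again. The members moved together: between 1 (ONOFF TAC M 1) and 88 (Con TAC F 4) of the 89 lay above their own median over the 40 libraries. Within ONOFF TAC this number was 3 to 79 for the females and 1 to 68 for the males, so the spread inside a condition exceeded the shift between conditions. Median within-group SD on the log2 scale was 0.24 for the members and 0.29 for all genes. It was lowest for Rpl4 (0.137) and Rpl5 (0.138).

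**Figure D3:**
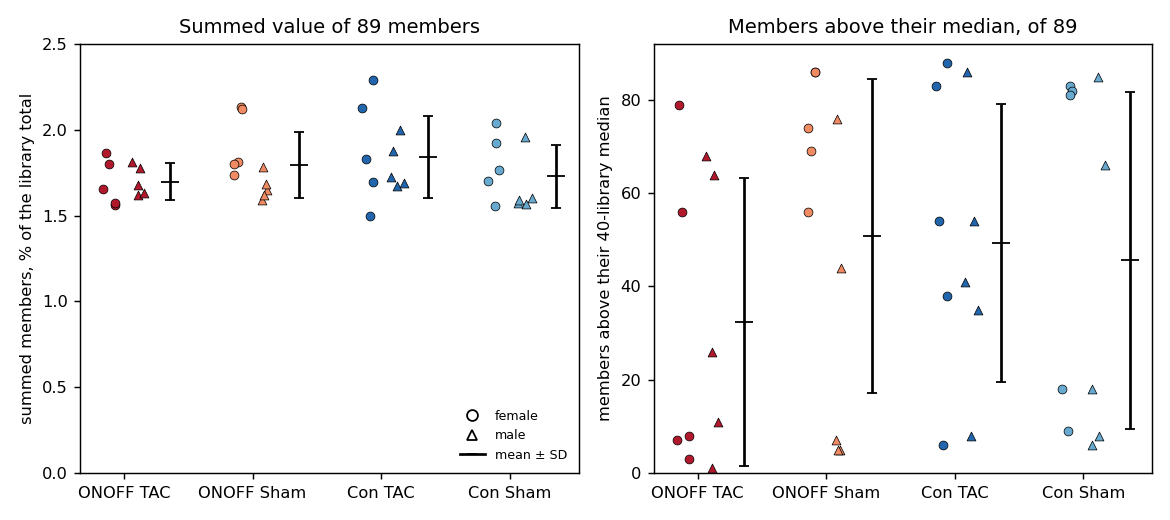
Left, summed value of the 89 genes as a percentage of each library's total on an axis from 0; right, number of the 89 genes above their own median over 40 libraries. Points are libraries (circles female, triangles male) with the mean ± SD at the side, and libraries of every condition spread from few members above the median to most of them.

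The RefSeq table of start sites (GRCm38.p6) held 65 of the 89 members. A run of at least 8 pyrimidines within 50 bases of the annotated start was found in 80.0% of these and in 39.3% of the 27025 genes in the table. CTTTC on the coding strand of this window was found in 50.8% of members and 14.6% of all. In the whole stretch from 250 bases before to 50 after the start, CCGGAA on either strand, a core of ETS factor binding motifs, was found in 53.8% and 16.7%. A gene with several listed starts counted if any of them matched. A match describes letters, not a used site. Below are 30 bases around such a run for 6 members with a run: the 4 called in every alternative and omission (Rpl3l, Rpl22l1, Rpl9 and Rps15a), Rps2, called in a pair of comparisons, and Rpl10, called between the sexes. They are shown with the run nearest the most upstream listed start in capitals. Their positions are chr17:24727846-24727875 (+) for Rpl3l, chr3:28805499-28805528 (+) for Rpl22l1, chr5:65391383-65391412 (−) for Rpl9, chr7:118116129-118116158 (−) for Rps15a, chr17:24720079-24720108 (+) for Rps2 and chrX:74270836-74270865 (+) for Rpl10.
Rpl3l: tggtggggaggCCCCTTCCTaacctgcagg
Rpl22l1: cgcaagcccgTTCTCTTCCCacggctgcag
Rpl9: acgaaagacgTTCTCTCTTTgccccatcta
Rps15a: ctttctgccaTCTTCCCTCgccggtgagtg
Rps2: ctataaattgTCCCTTCCgcggcgcctccc
Rpl10: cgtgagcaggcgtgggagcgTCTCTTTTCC
The runs of Rpl22l1 and Rps15a began at base 2 from the most upstream listed start and 1 base before it. The others began at bases 27 to 41 from it. That of Rpl10 reached base 50, the end of the searched window, and may extend further. Of the other called members, Rpl5, Rpl7a, Rps10 and Rps6 also held a run, and Rps3 and Rps4x held none within this window. Rpl8 was not among the 65 members with a listed start. An annotated start may differ from the one used in heart.

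Among the 12 paralogs, gene copies and the binding protein after TAC in ONOFF hearts, 9 were negative and 2 called (Rpl3l and Rpl22l1). Rps27l was positive in ONOFF (0.27, limma adjusted p = 0.215), ranging from 816 to 1592 (median 1190) after TAC and from 609 to 1257 (median 956) after sham. Rps4l changed by 0.12 (adjusted p = 0.702) there. Rpl7l1, a nucleolar paralog of Rpl7, changed by -0.09 (adjusted p = 0.565), and Rpl36al, the autosomal paralog of the X-linked Rpl36a, by -0.13 (adjusted p = 0.42). The copies Rps27rt, Rps3a2, Rpl37rt, Rpl35rt and Rpl6l had negative changes of -0.11 to -0.29 that did not pass. Reads of near-identical copies can be assigned to either, and 46 members had pseudogene rows in the table. Copies held 59.2% of the family value for Rps18, 46.3% for Rpl35a and 39.2% for Rpl34, while for Rps15a they held 0.623% and for Rpl9 3.57%. Summing each member with its copies gave 13 calls in ONOFF hearts after TAC, 12 lower and 1 higher, the higher one being Rpl3 (0.25, adjusted p = 0.0283).

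Female hearts had higher values than male hearts of 2 members, Rps4x and Rpl10, both X-linked, where 3.98% of all genes were called and 1.99% higher in females. These 2 made up 2.25% of the 89, near the share of all genes called higher. Rps4x, a small subunit protein, was 12422 to 20601 (median 16468) across females and 11771 to 18818 (median 14090) across males. Its log2 change was 0.19 (SE 0.052, limma adjusted p = 0.0329). Rpl10, which is placed late in large subunit maturation, was 10877 to 17553 (median 13793) across females and 10442 to 16655 (median 11872) across males, with a change of 0.19 (SE 0.055, limma adjusted p = 0.0343). The sexes overlapped for both genes. Autosomal members had changes as large that did not pass, among them Rpl17 (0.22, limma adjusted p = 0.0581), Rpl9 (0.21, 0.0728) and Rps24 (0.20, 0.0911). The other X-linked members, Rpl36a with 0.11 (adjusted p = 0.441) and Rpl39 with 0.14 (adjusted p = 0.456), did not pass, and the median over all 89 members was 0.10, with 7 of 89 negative, against 51.3% of all genes. Without the 2 Con TAC F libraries with little Xist, 0 members were called (adjusted p = 0.0623 for Rps4x and 0.0636 for Rpl10). The count was also 0 without Con Sham M 3, Con Sham M 5, Con TAC F 2, Con TAC M 2, ONOFF Sham F 1, ONOFF TAC F 1, ONOFF TAC M 1 or ONOFF TAC M 3. It was 1 without Con Sham F 3, Con Sham F 5, Con TAC F 4, ONOFF Sham F 4, ONOFF Sham M 2 or ONOFF TAC F 5, and 4 to 6 without Con Sham F 1, Con Sham M 4, Con TAC F 1 or Con TAC M 3. With another scaling it was 7 (library sum), 10 (sum without mitochondrial transcripts) and 10 (quantile normalization), all higher in females. Adipocyte markers differed too, 3 of 7 higher in females (Retn, Cfd and Adipoq, by 1.97, 1.59 and 1.71), and their part in this result was not tested.

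**Figure D4:**
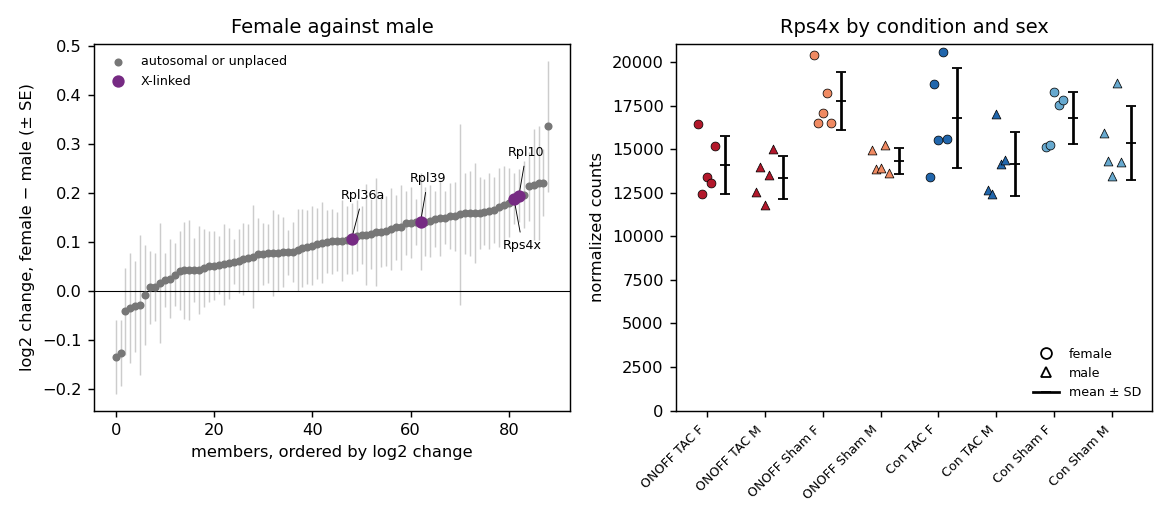
Left, log2 change of the 89 genes between females and males, ordered by size, with standard errors in grey and the 4 X-linked genes in purple; right, normalized counts of Rps4x by condition and sex on an axis from 0, with the mean ± SD of 5 libraries. Most changes are positive, and females and males overlap in Rps4x.

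The TAC effect in females minus that in males and the genotype effect in females minus that in males were called by limma for 0 of 89 members, and 0% of all genes were called in either. At an unadjusted p below 0.05 there were 0 and 1 members (Rpl37rt, genotype effect, 0.46), and 3.37% and 3.01% of all genes. The TAC difference was negative for 82 of 89 members and 49.9% of all genes, with medians of -0.13 and 0.0006. For the genotype difference it was 38 of 89 and 50.4%. In ONOFF females the members' mean summed share was 1.69% after TAC and 1.92% after sham, and in ONOFF males 1.70% and 1.66%. In Con hearts it was 1.89% and 1.80% in females and 1.79% and 1.66% in males (n = 5 each). These shares were not tested.

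Fau, whose product is a fusion of a small subunit protein with a ubiquitin-like protein, and Rack1, a scaffold on the small subunit, lie outside the naming rule and were not called in any of the 8 comparisons. Rack1 ranged from 11087 to 13520 (median 11513) in ONOFF TAC and from 10964 to 17490 (median 12049) in ONOFF Sham libraries.

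Ribosome biogenesis factors assemble the subunits from rRNA and these proteins. Of 46 such genes, 12 were higher and 1 lower in ONOFF hearts after TAC, where 10.7% of all genes were higher and 10.6% lower, and the median was 0.10 over the list and 0.01 over all genes. Rrp12, needed for export of both subunits in yeast, changed by 1.19 (limma adjusted p = 1.07e-09), Noc2l, whose yeast relative assembles the large subunit, by 0.37, and Bop1, which matures large subunit rRNA, by 0.36. Rrs1 fell by 0.21. In Con hearts 4 of 46 were higher and 0 lower, where 3.17% of all genes were higher and 2.62% lower, among them Rrp12 (0.88), Bop1 (0.29) and the box C/D component Nop58 (0.44). Between genotypes after TAC, 3 were higher in ONOFF (Rrp12 by 0.53, Bop1 by 0.23 and Tsr1 by 0.21) and 1 was lower (Rrs1), where 4.14% of all genes were higher and 3.82% lower. Of 15 genes of RNA polymerase I and its factors, 1 was called in each TAC comparison, the catalytic subunit Polr1a, lower by 0.24 in ONOFF and by 0.28 in Con hearts.

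Of 36 initiation factors, 9 were higher and 3 lower in ONOFF hearts after TAC, where 10.7% of all genes were higher and 10.6% lower, among them the helicase Eif4a1 (0.37), Eif3a (0.31) and Eif1a (0.33), and 2 were higher in Con hearts (Eif4a1 by 0.30 and the scaffold Eif4g1 by 0.21). Of 10 elongation and termination factors, Etf1, the release factor, was higher by 0.33 and Eef1a2, the muscle form of elongation factor 1 alpha, fell by 0.18 in ONOFF hearts, while Etf1 was higher by 0.21 in Con hearts. Of 26 genes of mTORC1 and TOP mRNA control, 4 were higher and 1 lower in ONOFF hearts, where 21.2% of all genes were called in either direction. These were the transcription factor Myc (1.13), the S6 kinase Rps6kb1 (0.26), the TOP mRNA binder Larp1 (0.20), the mTORC1 inhibitor Ddit4 (0.58) and the mTOR complex subunit Mlst8, which fell by 0.29. In Con hearts Myc alone was called (0.77). Between genotypes after TAC, the initiation list and the elongation and termination list had 0 calls by limma, and of the mTORC1 list Mycn was lower by 0.76 in ONOFF. After sham, 0 genes of these 5 lists were called between genotypes by limma.

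Cell marker levels moved with the same comparisons. The summed value of 10 cardiomyocyte markers was 2062000 to 2841000 in ONOFF TAC, 2682000 to 3856000 in ONOFF Sham, 2462000 to 4435000 in Con TAC and 2675000 to 4173000 in Con Sham libraries. After TAC in ONOFF hearts 5 of 10 of them were lower and 1 higher, where 10.6% of all genes were lower and 10.7% higher. After TAC 5 of 10 were lower in ONOFF than in Con hearts, where 3.82% of all genes were lower and 4.14% higher. The sum of 10 fibroblast markers was 162000 to 210200, 120400 to 180100, 120000 to 204800 and 120300 to 193800 in the same order of conditions, with 6 higher and 1 lower after TAC in ONOFF and 5 higher in ONOFF than in Con after TAC. The sum of 10 smooth muscle and pericyte markers was 155700 to 272900, 126800 to 159700, 146800 to 228300 and 119500 to 165200 in that order, with 3 higher and 1 lower after TAC in ONOFF and 2 each way between genotypes after TAC. Between genotypes Des (0.47) and Cspg4 (0.34) were higher and Abcc9 (-0.49) and Kcnj8 (-0.30) lower. The median log2 change of these markers was negative, -0.16 after TAC in ONOFF and -0.12 between genotypes after TAC. Their sum therefore does not describe the list as a whole. The sum of 10 macrophage and leukocyte markers was 5901 to 10130, 3985 to 9269, 5288 to 10200 and 4222 to 8774, with 2 higher after TAC in ONOFF. After TAC in Con hearts, 1 cardiomyocyte marker was higher and 1 lower, 3 fibroblast markers were higher and 1 lower, and 1 smooth muscle marker was higher and 1 lower, where 3.17% of all genes were higher and 2.62% lower. None of the endothelial (10), red cell (8) and adipocyte (7) markers was called in the genotype and surgery comparisons, and no marker was at 0 in every library. Mitochondrially encoded transcripts made up 13.4% to 19.4% of ONOFF TAC, 17.4% to 21.4% of ONOFF Sham, 8.28% to 19.3% of Con TAC and 18.2% to 22.1% of Con Sham libraries. The part of these shifts in the ribosomal protein results was not tested.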

How the data were processed

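The authors deposited 1 table of normalized counts (a signal that is not whole reads), 22676 genes by 40 libraries. Per the submitters' processing notes, the tools were FastQC 0.11.7, MultiQC 0.8, STAR 2.7.3a, Salmon, R 4.3.1 and DESeq2, and the build GRCm39; how the values were scaled is not given in the sources used here, and raw depth and counting error are unknown. Values were taken as log2(value + 1). A linear model of 8 group means was fitted to 16395 genes in limma 3.58.1 (R 4.3.3), with a trended prior, robust to outlying genes. The procedure was tested on simulated data drawn independently for each gene, so that test does not cover genes that move together. P-values are two-sided and adjusted within each of 8 contrasts. They weigh each change against the spread between libraries of the same group. No sequencing batch was stated. The library names hold 16 numbers whose meaning the labels do not give, used as a random block in an alternative, and the labels do not say that replicate numbers link mice.

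The members, gene lists and rule for named genes were chosen with earlier results of these data known. The rule named the paralogs and X-linked members always, up to 10 called members per contrast by adjusted p, 3 with the smallest p where none was called, and up to 3 called genes per pathway list; Rpl5, Rps3 and Rps15a between genotypes after TAC, Rpl8 and the genes called beyond 3 in a list were named after their values were seen. Alternatives were another pseudocount, filters, scalings, library weights, blocks and omitted libraries; merging copies was chosen after seeing the data. The table's genes have no coordinates here because the annotation at hand is of another build; start sites, sequences and their positions come from RefSeq (GRCm38.p6). Figures used Python 3.11.15 and matplotlib 3.10.9.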

Additional observations from a re-analysis of the deposited data

Results flagged for a closer look

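In groups of 5 libraries, the highest or lowest library was compared with its nearest neighbour, and 13 of 208 gene and group combinations had a gap above the critical value, where chance gives about 1 in 20. Con TAC F 4 stood high for Rpl36al (5139 against 2749 to 3210 in the other 4), Rpl39 (4716 against 2085 to 2680), Rpl3l (10191 against 7340 to 7924), Rps15a (7601 against 3733 to 4803), Rps27l (2080 against 1021 to 1217) and Rps3 (22283 against 15025 to 16980). Con TAC M 3 stood high for Rpl36al (3065 against 2430 to 2567), Rpl5 (15217 against 10266 to 11238) and Rps27rt (1688 against 95.3 to 229). Rpl22l1 was low in Con Sham F 1 (468 against 759 to 823). Rps3 was high in ONOFF Sham M 4 (17567 against 15095 to 15366), and Rps3a2 in ONOFF TAC F 1 (837 against 538 to 614). The summed share of the members was high in Con Sham M 4, 1.96% against 1.57% to 1.60%, and this library was 1 of the 3 with many genes at 0.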

How the results depend on the processing

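For TAC in ONOFF hearts the count of called members was 12, and it was 7 scaled to the library sum, 27 with library weights, 26 with only the groups compared and 6 to 15 when a library was left out. For TAC in Con hearts it was 1, and 3 scaled to the sum (2 higher, 1 lower), 0 with only the groups compared, 0 without the 2 Con TAC F libraries with little Xist, 0 without these and the 3 Con Sham libraries with many zeros, and 0 to 2 with 1 library left out. For ONOFF against Con after TAC it was 2, and 1 with only the groups compared, 5 without the 3 libraries, 1 without the 2 and 1 to 6 with 1 left out. For the interaction it was 0, and 1 with a pseudocount of 10, a mean of at least 50, quantile normalization, either sum scaling, library weights, an additive sex term, without the 3 or without the 2 libraries, 3 without the 5, and 0 to 1 with 1 left out. For sex it was 2, and 10 with quantile normalization, 10 scaled to the sum without mitochondrial transcripts, 7 scaled to the sum, 6 with library weights, 0 without the 2 or the 5, and 0 to 6 with 1 left out. The other 3 comparisons kept 0 throughout. The replicate block (numbers that are only names: same-numbered libraries correlated at a median of 0.00436) gave 14, 1, 3, 0, 0, 3, 0 and 0 calls in the 8 comparisons, and the library-name number as a random block (consensus correlation 0.0563) 9, 1, 2, 0, 0, 2, 0 and 0. Only uncalled Rpl3 values changed sign, those between genotypes after sham (-0.0050 without Con Sham M 3, up to 0.11 over the omissions), and the interaction (-0.050 without the 3 libraries and -0.044 without the 5). The causes were not tested. Scalings moved the median of all genes by under 0.1 on the log2 scale. The deposited values carry no depth, so small changes of low genes have no counting interval.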
